A study of Rattus norvegicus with 39 samples.

Results

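The step from 0.5 hr to 2 hr of reperfusion was examined in the reperfused lobe of the rat liver. It was read from 6 of the 39 arrays of the series, the 3 arrays titled as reperfused at 2 hr set against the 3 titled as reperfused at 0.5 hr, over all 23409 probe sets of coding genes. The animals were male Wistar rats, bought at 5 to 6 weeks of age, with free access to food and water, operated on mid-morning under isoflurane. A clamp on the vessels of the left and median lobes made 70% of the liver ischemic for 30 min while it stayed warm, and flow was then restored for 0.5 hr or 2 hr. RNA of the left and median lobes was combined as the reperfused sample, so each array is 1 animal and the 0.5 hr and 2 hr animals are different rats. The same step was read in the right lobe of the same rats, whose flow was never stopped (non-ischemic), and in sham-operated rats whose liver was handled without a clamp, with 3 arrays per time in each. Which lobe of the sham livers was taken is not stated in the sources used here. All operations began at the same part of the day, so reperfusion time, time after surgery, time without feeding and hour of the day cannot be told apart within a lobe.

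When blood returns to a liver deprived of oxygen, reactive oxygen and the stretch of cells are proposed to activate stress kinases. Such kinases can switch on immediate early genes within minutes without new protein synthesis. The products of these genes, such as the Fos and Jun subunits of the AP-1 transcription factor, can drive a second wave of genes. Whether they did so for the genes that rose in this step was not tested. In the paper, AP-1 activity in the reperfused lobe did not differ significantly from shams at the earlier of the times compared here. Immediate early transcripts are short-lived, and several of them encode proteins that end the response, such as phosphatases of MAP kinases, inhibitors of NF-kB and factors that degrade messenger RNA.

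Values are log2 of the deposited array intensity, fold changes are log2 differences of 2 hr minus 0.5 hr with their standard error (SE), and q is the p-value of a limma fit adjusted over all 23409 probe sets, called at 0.05. The 3 arrays of a time lay closer to each other than to those of the other time. Euclidean distances over all probe sets were 55.3 to 58.8 within 0.5 hr, 48.5 to 60.3 within 2 hr and 72.0 to 82.8 between the times. The sample is dominated by hepatocyte RNA, and the 9 measured hepatocyte markers had a median change of 0.03, with albumin (Alb) between 19.84 and 19.93 on all 6 arrays. One array differed from the others in blood-cell genes: 0.5 hr replicate 1 read 19.71 for the beta globin gene Hbb-b1, 14.43 for the heme synthesis gene Alas2 of red cell precursors and 12.31 for the platelet chemokine Pf4, while the other 0.5 hr arrays read at most 17.73, 10.84 and 7.95. All 10 measured red cell and platelet genes were lower at 2 hr, with a median of -0.89 and none called, and the summed intensity of the list was 847428 to 1837106 at 0.5 hr and 713383 to 873514 at 2 hr. The part of this difference in the results was not tested, and counts without that array are given below.

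At 2 hr, 559 probe sets were higher than at 0.5 hr and 214 were lower, which is 2.39% and 0.914% of those tested. Counts of list members called in this lobe are to be read against these shares. An unadjusted p under 0.05 was found for 3769 probe sets. Rises were more numerous, while the far ends of the distribution held more falls. Of the probe sets called, 9 rose and 22 fell by more than 3, and 4 rose and 13 fell by more than 4 on the log2 scale. The median change over all probe sets was -0.014 in these normalized values. The arrays of the times did not overlap for any of the 773 probe sets called. With 3 arrays per time a small q favours such separation, so it adds no separate support. The share without overlap among all probe sets was not counted. Leaving out 1 array at a time gave 191 to 378 higher and 67 to 126 lower. Without 0.5 hr replicate 1, the array with the blood-cell genes, 306 were higher and 126 lower.

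**Figure D1:**
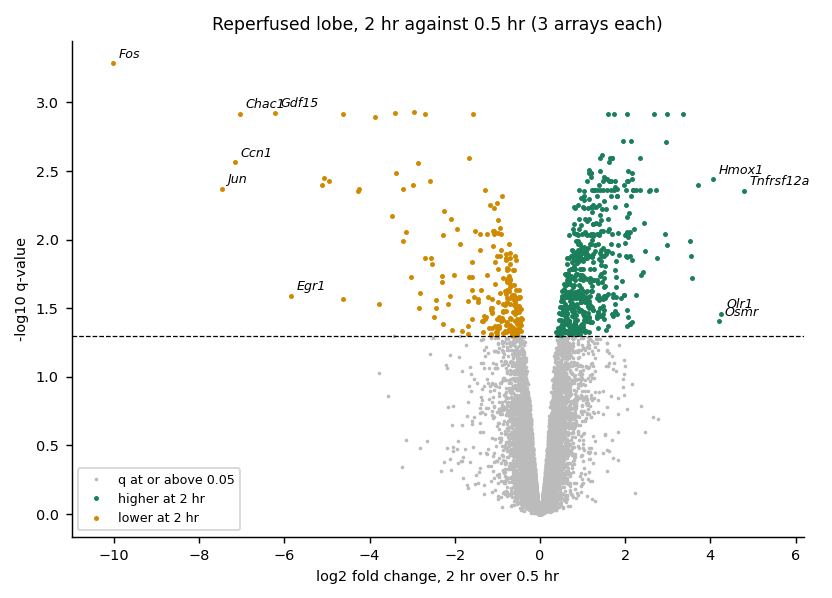
Volcano plot of the reperfused lobe, with the log2 fold change of 2 hr over 0.5 hr on the x axis and the -log10 q-value on the y axis, 1 point per probe set, and the dashed line at a q-value of 0.05. The falls reach -10.02 (Fos) and the rises 4.78 (Tnfrsf12a), with 214 probe sets lower and 559 higher.

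The AP-1 and ATF factors of the immediate early response included the largest fall, that of Fos. Of 10 measured members, 5 fell (Fos, Jun, Atf3, Fosb and Junb), none rose, and the median change was -2.0 against -0.013 over all genes. Fos (GRCr8 chr6:110852188-110855054) encodes the founding AP-1 subunit. It read 16.28, 15.73 and 15.35 at 0.5 hr and 5.34, 5.79 and 6.17 at 2 hr. The times did not overlap, the 2 hr values lay near the dim end of the scale, and the change was -10.02 (SE 0.29, q = 0.000518). Jun (chr5:115009900-115012993), its partner, read 15.58, 15.11 and 15.30 at 0.5 hr and 7.26, 6.99 and 9.31 at 2 hr, with replicate 3 of 2 hr the highest of its group. It fell by 7.47 (SE 0.60, q = 0.00427). Atf3 (chr13:105274103-105331653), a stress-induced repressor of the ATF family, read 11.38, 11.32 and 11.34 at 0.5 hr and 5.42, 6.15 and 7.13 at 2 hr. The early values were nearly equal, the late ones were spread out, and the fall was 5.12 (SE 0.40, q = 0.00399). Fosb fell by 4.62 (SE 0.24, q = 0.00122) and Junb by 3.14 (SE 0.33, q = 0.00875). Jund, the member with high basal expression, read 10.56 to 11.20 at 0.5 hr and 9.93 to 10.18 at 2 hr and was not called (q = 0.060), and Fosl1, Fosl2, Maff and Batf were not called either.

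The Egr, Nr4a, Klf and Ier genes behaved less uniformly. Of 20 measured, 6 fell (Egr1, Ier2, Nr4a1, Klf4, Klf2 and Ier3) and 1 rose (Klf10), with a median of -1.08. Egr1 (chr18:26737078-26740877), a zinc finger factor induced by growth factors and stress, read 16.35, 16.24 and 16.44 at 0.5 hr and 8.30, 11.62 and 11.59 at 2 hr. Replicate 1 of 2 hr was lower than the other 2 hr arrays by over 3, and the fall of 5.84 (SE 0.88, q = 0.0256) kept its call in 2 of 6 fits that left out 1 array. Ier2 (chr19:40399373-40400897), a nuclear immediate early protein, read 14.02, 13.58 and 13.10 and then 7.87, 9.06 and 8.92, a fall of 4.95 (SE 0.37, q = 0.00374). Klf4, a Krüppel-like factor of differentiation and endothelial quiescence, went from 8.48, 8.32 and 8.33 to 5.27, 5.41 and 5.60, and its fall of 2.95 had the narrowest error of these genes (SE 0.11, q = 0.00118). Nr4a1, an orphan nuclear receptor, read 12.27, 9.73 and 12.31 at 0.5 hr, with replicate 2 apart, and 6.29, 6.90 and 7.22 at 2 hr, a fall of 4.64 (SE 0.72, q = 0.0271). The related Egr2 read 8.68, 8.54 and 10.14 and then 5.17, 4.92 and 6.95. Its change of -3.44 was not called (q = 0.0505, and q = 0.00774 with the replicate number as a block). Klf10, a factor induced by TGF-beta, went the other way, from 7.61, 8.10 and 7.19 to 9.08, 9.04 and 9.34, a rise of 1.52 (SE 0.23, q = 0.0266, and q = 0.0661 with the replicate number as a block).

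Among 21 other immediate early genes, 12 fell and none rose, with a median of -2.10. Ccn1 (chr2:237222730-237225689), a secreted matrix protein of the CCN family, read 14.74, 14.57 and 14.03 and then 7.04, 6.49 and 8.31, a fall of 7.17 (SE 0.47, q = 0.00274). Apold1, an early response gene described in endothelial cells, read 11.53, 10.29 and 11.08 and then 5.71, 6.42 and 5.55, a fall of 5.07 (SE 0.37, q = 0.00353). Ppp1r15a, the phosphatase subunit that reverses the phosphorylation of eIF2 alpha, read 9.46, 10.19 and 8.98 and then 5.16, 5.01 and 5.75. All 2 hr values lay below all 0.5 hr values for these genes, and Ppp1r15a fell by 4.24 (SE 0.34, q = 0.00427). Rhob, a small GTPase with a short-lived transcript, read 13.46, 13.17 and 13.16 and then 9.40, 8.99 and 9.75, a fall of 3.88 (SE 0.20, q = 0.00129). The remaining 8 were Zfp36 and Zfp36l1, which encode proteins that bring about decay of AU-rich messenger RNA, the kinases Sik1 and Plk2, the growth arrest genes Gadd45a and Gadd45g, the deadenylase Noct and the G-protein regulator Rgs2, with falls of 1.12 (Rgs2, q = 0.0903 with the replicate number as a block) to 3.38 (Zfp36). Gadd45g was no longer called in any of the 6 fits that left out 1 array (highest q = 0.109).

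**Figure D2:**
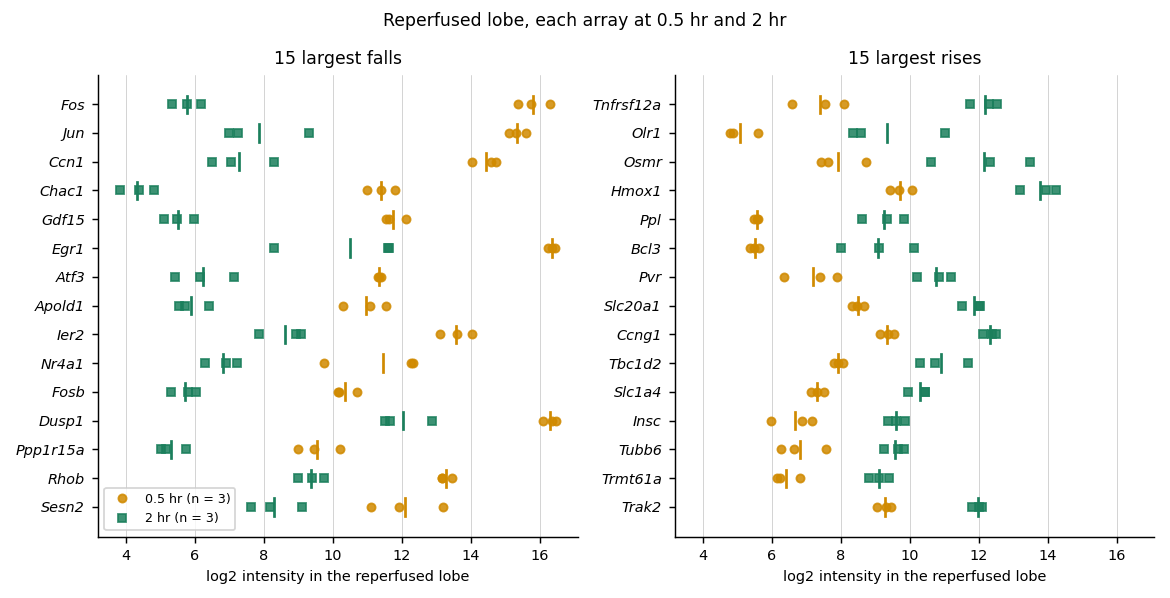
Log2 intensity (x axis) of the 15 genes with the largest falls (left) and the 15 with the largest rises (right) in the reperfused lobe, with 1 point per array, circles for 0.5 hr, squares for 2 hr (n = 3 each) and a vertical bar at each mean. Lack of overlap between the times was a condition for choosing these genes. Egr1 and Nr4a1 each have 1 array apart from the other members of its group.

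The sequence before the gene start was searched for short motifs on both strands, in the 250 bases upstream of each of 27457 RefSeq promoters (GRCr8). The cyclic AMP response element TGACGTCA was in 1.70% of all promoters, in 6 of 173 promoters of genes that fell and in 17 of 427 of genes that rose. It was in 3 of the 12 promoters available for the 15 largest falls, Ier2, Dusp1 and Ppp1r15a. The core of the serum response element was in 1.5% of all promoters, in 6 of 173 of genes that fell and 2 of 427 of genes that rose, and Egr1 held 2 copies. The AP-1 motif TGANTCA was in 6.36% of all promoters and in none of the 12. It was in 10 of 173 promoters of genes that fell and in 20 of 427 of genes that rose. The NF-kB motif was in 1.07% of all promoters, 2.31% of genes that fell and 2.11% of genes that rose. For the core of the HIF (hypoxia factor) site these shares were 16.9%, 24.3% and 25.8%. They were 34.6%, 35.8% and 34.9% for the antioxidant response element core, and 34.3%, 40.5% and 30.9% for CCAAT. No motif share was tested. No promoter was available for Fos, Jun and Atf3. The 4 promoters are shown because they belong to genes of the largest falls that hold one of the first 2 motifs, which are in capitals, each read 5′ to 3′ toward the gene start. The first base of the element lay 66 bases before the start in Ier2 and Ppp1r15a and 124 in Dusp1, and the copies in Egr1 began 105 and 83 bases before it. The windows are chr19:40399123-40399372 on the plus strand for Ier2, chr10:17184603-17184852 on the plus strand for Dusp1, chr1:105139597-105139846 on the minus strand for Ppp1r15a and chr18:26736828-26737077 on the plus strand for Egr1. A match describes letters in this window and is not evidence of a factor bound there.
Ier2: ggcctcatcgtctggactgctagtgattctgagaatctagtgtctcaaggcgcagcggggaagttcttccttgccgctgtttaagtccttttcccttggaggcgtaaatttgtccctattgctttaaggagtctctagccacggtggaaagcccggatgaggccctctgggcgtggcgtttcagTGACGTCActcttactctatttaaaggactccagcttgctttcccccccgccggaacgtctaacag
Dusp1: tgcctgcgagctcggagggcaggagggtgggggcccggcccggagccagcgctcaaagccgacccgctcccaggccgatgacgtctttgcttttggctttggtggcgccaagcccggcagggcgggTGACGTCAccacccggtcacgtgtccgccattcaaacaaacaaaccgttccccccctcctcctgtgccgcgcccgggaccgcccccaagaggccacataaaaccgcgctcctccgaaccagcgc
Ppp1r15a: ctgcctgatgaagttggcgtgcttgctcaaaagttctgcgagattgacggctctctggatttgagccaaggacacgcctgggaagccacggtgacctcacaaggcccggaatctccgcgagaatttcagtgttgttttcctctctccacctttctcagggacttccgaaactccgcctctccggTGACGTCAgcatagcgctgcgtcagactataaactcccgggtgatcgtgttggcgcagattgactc
Egr1: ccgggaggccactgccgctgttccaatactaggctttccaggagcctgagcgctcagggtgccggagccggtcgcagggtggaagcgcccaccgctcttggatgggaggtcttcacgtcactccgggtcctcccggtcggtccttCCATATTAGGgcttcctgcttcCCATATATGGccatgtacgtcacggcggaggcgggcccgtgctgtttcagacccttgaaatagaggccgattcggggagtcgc

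Genes for proteins that restrain signalling moved both ways. Of 15 MAP kinase phosphatases and feedback inhibitors, 2 fell (Dusp1 and Spry1) and 1 rose (Dusp16), with a median of -0.19. Dusp1, a nuclear phosphatase of the p38 and JNK kinases, read 16.46, 16.34 and 16.07 and then 11.67, 11.51 and 12.87, a fall of 4.27 (SE 0.36, q = 0.00438). Dusp16, a phosphatase of JNK, went from 7.31, 7.46 and 7.48 to 9.21, 9.17 and 9.09, a rise of 1.74 (SE 0.085, q = 0.00121). So one JNK phosphatase gene was 4.27 lower and another 1.74 higher in the same arrays. Spry1, an inhibitor of receptor tyrosine kinase signalling, fell by 1.28 (SE 0.11, q = 0.00435).

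Of 15 NF-kB subunits and inhibitors, 3 feedback inhibitors fell and 2 genes rose, with a median of 0.12. Nfkbia, the inhibitor I kappa B alpha, read 12.02, 12.73 and 11.23 and then 8.65, 8.90 and 8.80, a fall of 3.21 (SE 0.36, q = 0.0102). Tnfaip3, the ubiquitin-editing protein A20, fell by 2.87 (SE 0.19, q = 0.00277), and Nfkbiz by 2.44 (SE 0.40, q = 0.0316). Bcl3, a nuclear protein of the I kappa B family that acts with the p50 subunit, rose from 5.50, 5.38 and 5.64 to 10.12, 8.01 and 9.12. Its rise was 3.58 (SE 0.49, q = 0.0192) and Nfkb1, which encodes p50, rose by 1.39 (SE 0.15, q = 0.00927). Bcl3 kept its call in 2 of 6 fits with 1 array left out and Nfkbiz in 1 (highest q = 0.111).

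Chemokine and cytokine genes are set against 0.914% of all probe sets lower and 2.39% higher. Of 26 measured, 2 fell and none rose, and 12 of the 26 had a mean log2 intensity under 5, a range in which background weighs on the reading. Il1a, the interleukin-1 alpha gene, read 12.71, 12.21 and 13.11 and then 9.34, 9.80 and 9.26, a fall of 3.21 (SE 0.26, q = 0.00427). Cxcl2, a neutrophil-attracting chemokine, fell from 8.17, 7.20 and 6.19 to between 4.20 and 4.42, or 2.84 (SE 0.47, q = 0.0318). Its relative Cxcl1 read 12.60, 13.60 and 10.99 and then 11.93, 11.96 and 11, and the times overlapped (q = 0.69). Tnf and Il6 were dim on all 6 arrays, at 3.57 to 4.15. The 10 neutrophil markers had a median change of -0.12 with none called and 7 of them under 5, and S100a9 read 5.12 to 7.56 at 0.5 hr and 5.45 to 6.65 at 2 hr.

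Genes of the integrated stress response, in which phosphorylated eIF2 alpha raises the factor Atf4, divided. Of 26 measured targets, 3 fell, 2 rose and the median was 0.07. Chac1 (chr3:126796131-126799352), an enzyme that degrades glutathione, read 10.97, 11.39 and 11.81 and then 3.82, 4.37 and 4.82, a fall of 7.05 (SE 0.31, q = 0.00121). Sesn2, a sestrin that lowers mTORC1 activity, fell by 3.78 (SE 0.60, q = 0.0293), and Ddit3, the factor CHOP, by 1.53 (SE 0.16, q = 0.00863). Slc1a4, a transporter of neutral amino acids, rose from 7.52, 7.14 and 7.32 to 10.46, 9.96 and 10.44, or by 2.96 (SE 0.17, q = 0.00194). Slc7a1, the transporter of cationic amino acids, rose by 2.12 (SE 0.38, q = 0.0414, and q = 0.0585 with the block). These are also the 2 called of 17 amino acid transporters. Asns and Trib3, other targets of Atf4, spread over more than 2 within a group, at 6.48 to 9.42 and 6.36 to 8.93 at 0.5 hr and 7.59 to 10.70 and 8.06 to 10.09 at 2 hr, and were not called.

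Targets of p53 moved both ways, with 3 of 19 higher and 3 lower. Gdf15 (chr16:18838436-18842022), a secreted stress cytokine, read 11.62, 12.12 and 11.53 and then 5.10, 5.49 and 5.99, a fall of 6.23 (SE 0.26, q = 0.00119). Plk2, a kinase, fell by 2.57 (SE 0.19, q = 0.00374), and Sesn2 is the third. Ccng1 (chr10:25678503-25684876), cyclin G1, rose from 9.54, 9.14 and 9.39 to 12.38, 12.12 and 12.50, or by 2.98 (SE 0.15, q = 0.00121). The death receptor gene Tnfrsf10b rose by 1.37 (SE 0.21, q = 0.0255) and the nuclease gene Aen by 1.17. Cdkn1a, the cell cycle inhibitor p21, read 10.50, 8.63 and 8.57 and then 11.88, 11.38 and 9.97, and its change of 1.84 was not called (q = 0.253).

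The largest rise was in a receptor of the tumor necrosis factor (TNF) superfamily, and 8 of 23 genes of TNF receptors and apoptosis control rose while 1 fell. The list's median was 0.12. Tnfrsf12a (chr10:13211670-13213666), the receptor Fn14 for the cytokine TWEAK, read 8.09, 6.58 and 7.54 at 0.5 hr and 12.30, 11.73 and 12.52 at 2 hr. This was a 27.5-fold increase, or 4.78 on the log2 scale (SE 0.40, q = 0.00438). Tnfrsf1b, TNF receptor 2, went from 11.04, 10.48 and 10.52 to 12.79, 13.00 and 13.26, a rise of 2.34 (SE 0.19, q = 0.00432), and Tnfrsf1a, TNF receptor 1, rose by 0.97 and Tnfrsf21 by 0.99. Genes for survival and for death rose side by side. Mcl1 and Bcl2l1, which oppose cell death, rose by 1.17 and 0.85, and Bcl2l11, the death-promoting protein Bim, by 1.24 (SE 0.15, q = 0.0128). Bcl2l1 was at q = 0.0808 with the block. Casp8, the protease downstream of death receptors, fell from 7.64 to 7.86 at 0.5 hr to 6.99 to 7.17 at 2 hr (q = 0.0195, and 0.0538 with the block). Leaving out an array left 6 members higher without 0.5 hr replicate 1, 3 without replicate 2 and 2 without replicate 3, and 4, 2 and 3 without replicates 1, 2 and 3 of 2 hr.

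Signalling of the IL-6 family was represented by 16 genes, of which 3 rose, none fell and 15 had a positive change, with a median of 0.61. Osmr (chr2:57634517-57688802), the receptor subunit for oncostatin M, read 7.63, 7.42 and 8.73 and then 13.48, 10.62 and 12.32. The 2 hr arrays were spread out and all lay above the 0.5 hr arrays, and the rise was 4.21 (SE 0.74, q = 0.0393). Leaving out any array other than 2 hr replicate 2 ended the call (highest q = 0.134). Il6r rose by 1.39 (SE 0.22, q = 0.0275, and 0.0699 with the block), and the third is Bcl3. Stat3, the factor downstream of these receptors, read 12.14 to 12.54 and then 12.92 to 14.39 and was not called (q = 0.143), and Socs3 changed by 0.19 (q = 0.778). None of 17 acute phase plasma proteins was called, and the haptoglobin gene Hp read 16.93 to 16.99 and then 17.11 to 17.31.

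Among 18 antioxidant genes controlled by Nrf2, 1 rose and 1 fell, with a median of 0.09. Hmox1 (chr19:13452365-13479823), heme oxygenase 1, which degrades heme, read 10.07, 9.43 and 9.69 at 0.5 hr and 13.19, 13.94 and 14.23 at 2 hr. The increase was 16.6-fold, or 4.06 (SE 0.29, q = 0.00362). Of the other classical targets, Nqo1, Gclc, Gclm, Txnrd1 and Srxn1 changed by -0.32 (Gclc) to 0.64 (Txnrd1) and none was called. Osgin1, an oxidative stress gene, fell by 2.08 (SE 0.38, q = 0.0453, and 0.0722 with the block).

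Cytoskeletal and adhesion genes were among the rises. Of 40 measured members, 12 rose and none fell, with a median of 0.48. Pvr (chr1:88689235-88704641), the adhesion receptor CD155, read 7.39, 6.35 and 7.88 and then 10.85, 10.22 and 11.19, a rise of 3.55 (SE 0.43, q = 0.0131). Tubb6, a beta tubulin, rose from 7.56, 6.28 and 6.64 to 9.83, 9.25 and 9.65, or by 2.75 (SE 0.34, q = 0.0136). Fat1, a giant protocadherin, rose from 8.43, 9.16 and 9.18 to 11.67, 11.23 and 11.20, or by 2.44 (SE 0.24, q = 0.00753). S100a10, the partner of annexin A2, rose by 2.12 (SE 0.26, q = 0.0132). The other 8 were the tubulins Tubb4b, Tubb2a and Tubb2b, the keratins Krt8 and Krt18, nonmuscle myosin Myh9, lamin A (Lmna) and Akap13, with rises of 0.47 (Tubb2b) to 2.04 (Tubb4b). Tubulin genes are near copies of each other, so their probe sets may share signal. With the block 9 members were higher, and Krt8 (q = 0.0852), Krt18 (q = 0.0706), Lmna (q = 0.0682) and Tubb2b (q = 0.0813) were not called. Without 0.5 hr replicates 1, 2 and 3 in turn 8, 7 and 3 were higher, and without 2 hr replicates 1, 2 and 3 in turn 2, 6 and 6.

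Of 17 genes of fibrinolysis and matrix turnover, 4 rose and none fell, with a median of 0.59. Timp3, an inhibitor of metalloproteases, rose from 8.14, 7.73 and 8.24 to 10.02, 9.80 and 10.52, or by 2.08 (SE 0.22, q = 0.00906). The aggrecanase Adamts4 rose from 5.56, 4.83 and 5.53 to 7.56, 8.15 and 6.97, or by 2.25 (SE 0.34, q = 0.0252, and 0.0698 with the block). Plaur, the urokinase receptor, rose by 1.25 and Mmp14, a membrane metalloprotease, by 1.04. A protease inhibitor and 2 proteases were thus higher in the same arrays.

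Further large rises belonged to no single pathway. Olr1, the receptor LOX-1 for oxidized lipoprotein, read 4.87, 4.80 and 5.60 and then 8.37, 8.59 and 11.03, with replicate 3 of 2 hr apart, a rise of 4.24 (SE 0.71, q = 0.0346). It kept its call in 1 of 6 fits with an array left out, the one without 2 hr replicate 3. Ppl, periplakin, which links intermediate filaments to cell junctions, rose from between 5.49 and 5.61 to 8.62, 9.35 and 9.83, or by 3.70 (SE 0.29, q = 0.00399). Slc20a1, a phosphate transporter, went from 8.48, 8.66 and 8.34 to between 11.52 and 12.02, a rise of 3.36 (SE 0.17, q = 0.00121). Tbc1d2, a GTPase-activating protein that turns off Rab proteins, rose by 2.97 (SE 0.34, q = 0.011), and Insc, an adaptor that orients the mitotic spindle, by 2.94 (SE 0.32, q = 0.00906). Trak2, an adaptor that tethers mitochondria to kinesin, read 9.46, 9.05 and 9.31 and then 12.09, 12.01 and 11.80, a rise of 2.69 (SE 0.14, q = 0.00122). Trmt61a, the catalytic subunit of a tRNA methyltransferase, rose by 2.72 on one probe set and 2.55 on the other.

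Ribosome biogenesis genes were among the rises. Of 30 measured genes for nucleolar processing factors and RNA polymerase I, 16 rose and none fell, all 30 had a positive change, and the median was 1.19. Nop58, a core protein of box C/D ribonucleoproteins, read 10.41, 9.72 and 10.11 and then 12.39, 12.16 and 12.11, a rise of 2.14 (SE 0.19, q = 0.00482). Tsr1, a maturation factor of the small subunit, went from 8.32, 7.79 and 7.87 to 10.34, 10.34 and 10.32, and its 2 hr arrays were nearly equal. It rose by 2.34 (SE 0.15, q = 0.00253). Ddx21, a nucleolar helicase, rose by 2.04 (SE 0.25, q = 0.0134), and Heatr1, a factor of pre-ribosomal transcription, by 2.06 (SE 0.23, q = 0.00963), with 2.00 on its other probe set. The other 12 were Wdr43, Rrp12, Nop56, Nolc1, Bysl, Rrs1, Rrp9, Nop14, Utp4, Gnl3, Utp15 and Polr1c, with rises of 0.79 (Polr1c) to 2.01 (Wdr43). For the abundant nucleolar proteins, Npm1 changed by 0.23, Ncl by 0.42 and Fbl by 0.43, and none was called. The count fell to 5 without 0.5 hr replicate 2 or 3, to 9 without 2 hr replicate 1 and to 6 without 2 hr replicate 2, while the median stayed between 1.02 and 1.31 in all settings run. Of 17 aminoacyl-tRNA synthetases, which load amino acids onto tRNA, all had a positive change, with a median of 0.55, and 1 was called, Rars1 at 1.04 (SE 0.18, q = 0.0361), which was not called in any fit with 1 array left out (highest q = 0.125).

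**Figure D3:**
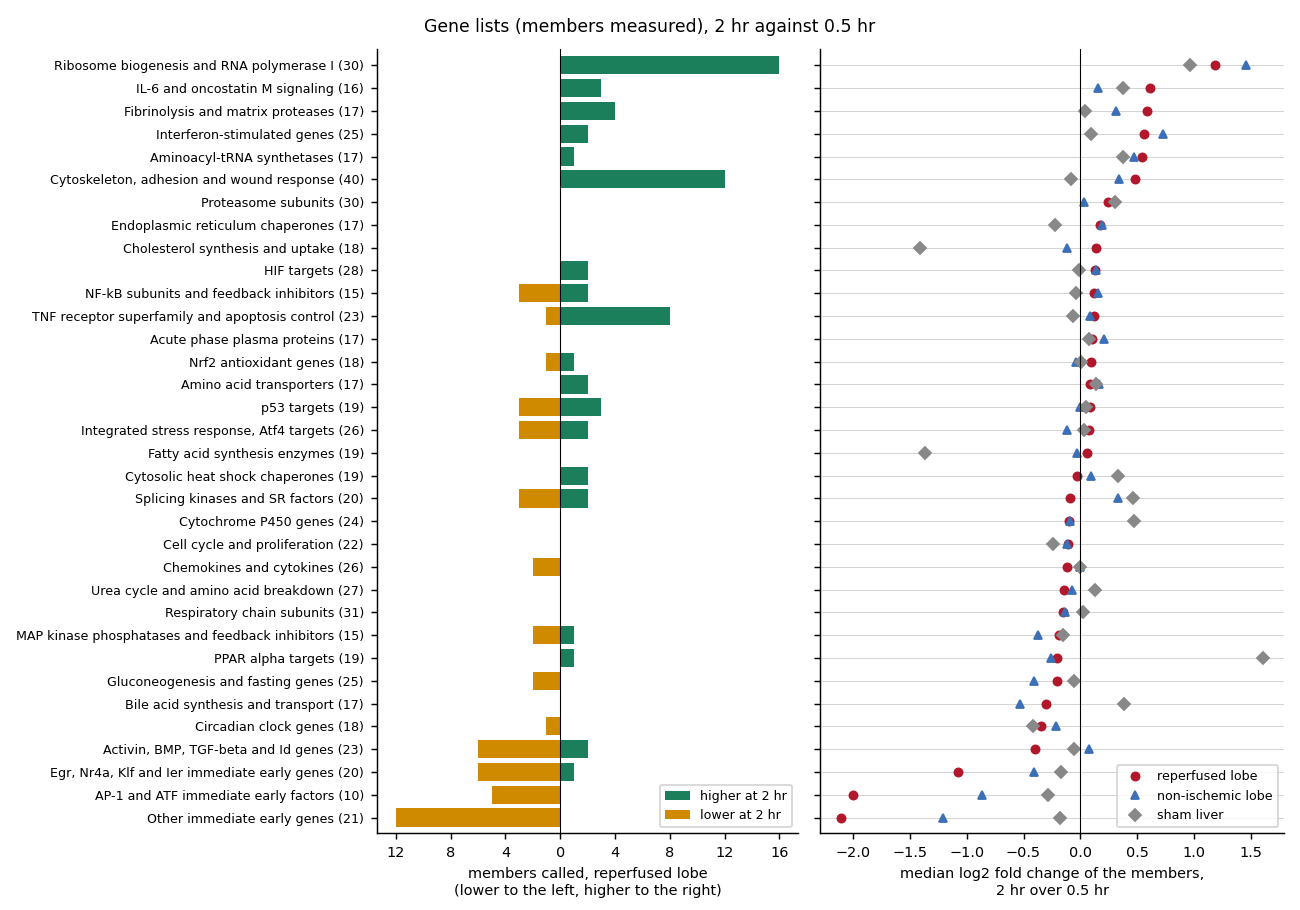
Left, the number of members of each gene list called lower (left of zero) or higher (right of zero) at 2 hr in the reperfused lobe, with the number measured in parentheses. Right, the median log2 fold change of 2 hr over 0.5 hr of the same members in the reperfused lobe, the non-ischemic lobe and sham livers, where ribosome biogenesis lies at 1.19, 1.45 and 0.96.

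Of 23 measured ligands and regulators of the activin, BMP and TGF-beta family, 6 fell, 2 rose and 15 were not called, with a median of -0.40. Bmp2, a ligand made largely by endothelial cells of the liver, read 9.36, 9.66 and 9.59 and then 6.97, 6.64 and 6.90, a fall of 2.70 (SE 0.13, q = 0.00121). Id4, an inhibitor of basic helix-loop-helix factors, fell by 1.68 (SE 0.30, q = 0.0429) and Id3, a target of BMP signalling, by 1.14 (q = 0.0489, and 0.0812 with the block). Inhbe, the subunit of activin E made by hepatocytes, read 13.68, 14.20 and 13.93 and then 12.69, 12.46 and 11.91, a fall of 1.59 (SE 0.23, q = 0.0231). Inhbb rose by 1.01 and Skil, a repressor of TGF-beta signalling, by 1.04, with q = 0.0602 for Skil with the block. Gdf15 and Inhba were the other members that fell.

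Splicing regulators were divided, with 3 of 20 lower and 2 higher. Clk1, a kinase of SR proteins, read 11.86, 12.29 and 12.63 and then 10.62, 10.90 and 10.44, a fall of 1.61 (SE 0.22, q = 0.0188). Ccnl1, cyclin L1, fell by 1.24 (SE 0.13, q = 0.00906), while the SR proteins Srsf2 and Srsf4 rose by 0.80 and 0.71, and Srsf4 was no longer called in any fit with 1 array left out. Of 19 cytosolic heat shock chaperones 2 rose, Hspa4 by 1.10 (SE 0.084, q = 0.00374) and Hspb8 by 1.53 (SE 0.22, q = 0.0219, and 0.0677 with the block), and Hspa1a, the classical inducible form, read 5.83 to 7.47 and then 5.21 to 5.82 and was not called. Of 25 interferon-stimulated genes 2 rose, Usp18 by 1.76 (SE 0.16, q = 0.00578) and the RNA sensor Ifih1 by 1.18 (SE 0.18, q = 0.026), and the median was 0.56. Of 28 targets of the hypoxia factor HIF 2 rose, the glycolysis regulator Pfkfb3 by 1.21 (SE 0.17, q = 0.0197) and the glucose transporter Slc2a1 by 0.68 (SE 0.13, q = 0.0454), with a median of 0.13. With the block they were at q = 0.0664 and q = 0.0674. Over all probe sets, 2.39% were higher and 0.914% lower.

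Few metabolic genes of the hepatocyte passed the test. None of the measured members was called among 17 bile acid genes, 24 cytochrome P450 genes, 27 genes of the urea cycle and amino acid breakdown, 19 of fatty acid synthesis, 18 of cholesterol synthesis, 31 respiratory chain subunits, 30 proteasome subunits or 22 cell cycle genes, with medians of -0.30 to 0.25. The spread within these groups can be wide, and Cyp7a1, the first enzyme of bile acid synthesis, read 11.78, 15.10 and 16.60 at 0.5 hr. Glucose output held a fall. Pck1 (chr3:182348572-182354521), which commits carbon to gluconeogenesis, read 18.77, 18.74 and 18.77 and then 17.08, 16.58 and 15.72, a fall of 2.30 (SE 0.32, q = 0.0205). G6pc1, the phosphatase that releases glucose, read 16.35, 15.99 and 16.80 and then 13.42, 13.97 and 10.40. For G6pc1, 2 hr replicate 3 stood apart, and the change of -3.78 was not called (q = 0.0939). Of 25 gluconeogenic and fasting genes 2 fell, Pck1 and Gadd45g. Cidec, a lipid droplet protein among 19 PPAR alpha targets, rose from 11.83, 11.78 and 11.50 to 14.13, 13.83 and 13.67, or by 2.17 (SE 0.15, q = 0.00325). The desaturase gene Scd read 6.53 to 6.79 and then 5.97, 6.41 and 8.53 and was not called (q = 0.89).

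Of the marker genes of other liver cells, 1 was called. Kdr, the VEGF receptor 2 of endothelial cells, read 14.46, 13.71 and 14.42 and then 12.34, 12.45 and 11.74, a fall of 2.02 (SE 0.27, q = 0.0181, and 0.0515 with the block). Of 9 sinusoidal endothelial markers 8 had a negative change, with a median of -0.61 and a summed intensity of 50566 to 90695 at 0.5 hr and 34075 to 44056 at 2 hr. All 9 stellate cell markers had a negative change, with a median of -0.48 and sums of 11546 to 14739 and 6559 to 7612. The 10 Kupffer cell and macrophage markers had a median of -0.05 and sums of 41557 to 83495 and 46335 to 57961. In whole tissue, fewer cells of a type and less RNA per cell cannot be told apart, and the part of cell content in the fall of Apold1, Klf2, Klf4 and Bmp2, which endothelial cells also express, was not tested.

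In the non-ischemic lobe of the same rats the step moved 702 probe sets higher and 347 lower, 3% and 1.48% of those tested. The lobes share the animal, so their steps are set side by side. Of the 559 probe sets higher in the reperfused lobe, 298 (53.3%) were also called higher in this lobe. Of the 214 lower, 85 (39.7%) were also called lower. Of the 30 ribosome biogenesis genes, 23 rose in the non-ischemic lobe, with a median of 1.45, and 16 in the reperfused lobe. Hmox1 rose by 3.96 there and by 4.06 in the reperfused lobe, and the difference was not called (q = 0.988). Chac1 fell by 7.71 and 7.05 (q = 0.961 for the difference), and Jun by 6.21 and 7.47 (q = 0.709). A q above the threshold does not show that the lobes acted alike, and the SE of the difference was 0.45 for Hmox1, 1.24 for Chac1 and 0.77 for Jun.

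A change of the lobe difference within animals was called for 33 probe sets toward a higher and 27 toward a lower step in the reperfused lobe, 0.141% and 0.115% of those tested. The lower side held 9 immediate early genes. Fos fell by 10.02 in the reperfused and 3.90 in the non-ischemic lobe, a difference of -6.13 (SE 0.37, q = 0.00222), since the non-ischemic lobe read 8.71 to 9.56 at 0.5 hr and 4.76 to 5.54 at 2 hr. Fosb and Ier2 changed by -0.23 and -0.39 in the non-ischemic lobe, and their differences were -4.39 (q = 0.00222) and -4.56 (q = 0.000569). Of the 10 AP-1 and ATF genes 3 differed between the lobes (Fos, Fosb and Junb), of the 20 Egr, Nr4a, Klf and Ier genes 3 (Ier2, Egr1 and Klf4), and of the other 21 immediate early genes 3 (Gadd45g, Zfp36 and Plk2), all toward a deeper fall in the reperfused lobe.

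Inhbe and Bcl2l11 were called in opposite directions in the lobes. Inhbe fell by 1.59 in the reperfused lobe and rose by 3.45 in the non-ischemic lobe (q = 0.0184), from 10.42 to 12.50 at 0.5 hr to 14.58 to 14.83 at 2 hr, a difference of -5.04 (SE 0.40, q = 0.00733). Bcl2l11 rose by 1.24 in the reperfused and fell by 1.67 in the non-ischemic lobe (q = 0.0109), a difference of 2.91 (SE 0.31, q = 0.0184). Cxcl1, whose reperfused step was not called, was already at 10.99 to 13.60 in the reperfused lobe at 0.5 hr and rose in the non-ischemic lobe from 6.47 to 9.68 to 12.10 to 12.75, while the reperfused lobe read 11 to 11.96 at 2 hr. Its difference was -5.06 (SE 0.58, q = 0.0246). Cxcl1 was also called higher at 2 hr than at 0.5 hr in shams. G0s2, an inhibitor of fat breakdown, changed by -1.62 in the reperfused lobe (q = 0.127) and rose by 1.97 in the non-ischemic lobe (q = 0.0126, difference -3.59, q = 0.0184). On the higher side were Fat1 (difference 1.89, q = 0.00733), Trak2 (1.87, q = 0.0359), the nuclear receptor cofactor Nrip1 (2.16, q = 0.0488), Rell1 (1.86, q = 0.0376) and Gucd1 (1.84, q = 0.0412). Of the cytoskeletal list 4 of 40 differed between the lobes (Tubb6, Palmd, Akap13 and Fat1), all toward a higher step in the reperfused lobe, and none of the ribosome biogenesis list did. The count of 60 probe sets depended on the fit, with 1 called with limma's trend and robust options and 9 to 28 when an animal was left out.

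**Figure D4:**
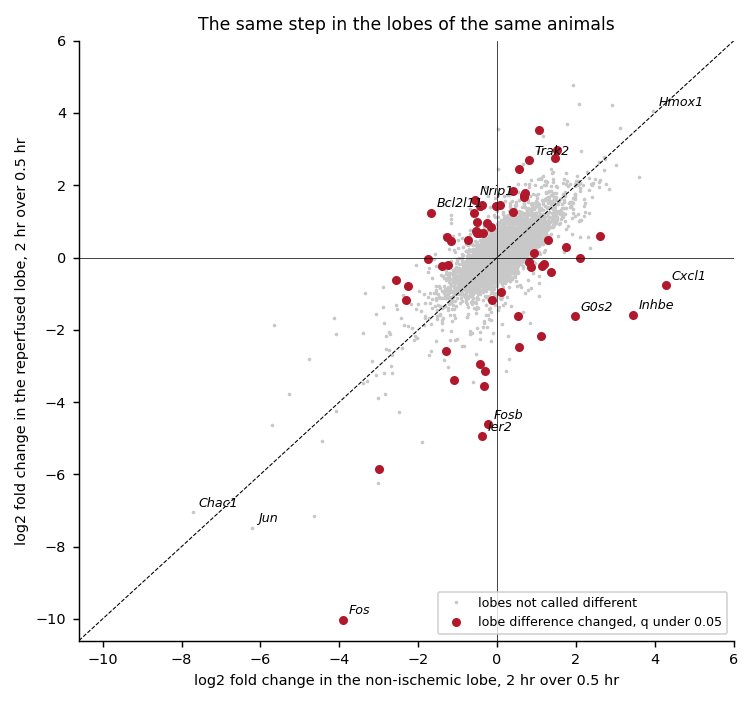
Log2 fold change of 2 hr over 0.5 hr in the non-ischemic lobe (x axis) and the reperfused lobe (y axis) of the same animals, 1 point per probe set, with the line of equal change dashed and the 60 probe sets whose lobe difference changed in red. Jun, Chac1 and Hmox1 lie near the dashed line, while Fos lies below it and Inhbe and Cxcl1 lie to the right.

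The sham livers gave the step without ischemia. They moved 152 probe sets higher and 123 lower, 0.649% and 0.525% of those tested, and this count was unstable, at 1 without sham 0.5 hr replicate 2 or 3 and 1972 without sham 2 hr replicate 2. The reperfused step differed from the sham step for 225 probe sets upward and 210 downward, 0.961% and 0.897%. Fos read 4.27 to 5.14 and 4.53 to 5.01 in shams, so its difference was -10.02 (SE 0.41, q = 3.49e-06). Gdf15 changed by -0.62 in shams (q = 0.228) and differed by -5.61 (SE 0.40, q = 0.000311). Ccn1 changed by -2.02 in shams (q = 0.0938) and differed by -5.15 (q = 0.012), and Fosb differed by -4.55 (q = 0.000135). Genes chosen by a rise or fall in the reperfused lobe share those arrays with this contrast, so differences among them are not separate support. Of the immediate early genes that fell in the reperfused lobe, 4 of 5 AP-1 and ATF genes, 3 of 6 Egr, Nr4a, Klf and Ier genes and 5 of the other 12 had a lower step than in shams. Those not called were Jun (q = 0.108), Egr1 (q = 0.0776), Nr4a1 (q = 0.284), Klf2 (q = 0.331), Ppp1r15a (q = 0.0646), Rhob (q = 0.376), Sik1 (q = 0.502), Gadd45g (q = 0.405), Gadd45a (q = 0.0763), Noct (q = 0.115) and Rgs2 (q = 0.0621). The changes of Jun, Nr4a1 and Rhob in shams were -2.66, -1.72 and -2.45, none of them called. Dusp1 was not called either (q = 0.176), and it fell by 2.59 in shams (q = 0.0429).

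Among the rises, Tnfrsf12a differed from shams by 6.04 (SE 0.625, q = 0.00192), since its change there was -1.26 (q = 0.138), from 7.84 to 9.37 at 0.5 hr to 7.25 to 7.88 at 2 hr. Olr1 differed by 4.81 (q = 0.0175), Pvr by 4.14 (q = 0.00672), Nrip1 by 3.54 (q = 0.00051) and Ppl by 3.44 (q = 0.00145). In the non-ischemic lobe the steps were 1.94 for Tnfrsf12a (q = 0.299), 2.07 for Olr1 (q = 0.0814), 0.03 for Pvr (q = 0.996) and 1.78 for Ppl (q = 0.00299). Their lobe differences were not called (q = 0.206, 0.622, 0.19 and 0.114), while that of Nrip1 was. Pvr in the non-ischemic lobe read 7.90 to 10.09 at 0.5 hr and 7.40 to 10.09 at 2 hr. At 0.5 hr it read 6.35 to 7.88 in the reperfused lobe and 7.15 to 7.60 in shams. Osmr and Bcl3 rose in the non-ischemic lobe by 2.90 (q = 0.0456) and 3.12 (q = 0.0253), and Bcl3 rose in shams by 1.97 (q = 0.0297). Of the cytoskeletal list 8 of 40 had a higher step than in shams (Krt8, Tuba1c, Fat1, Tubb4b, S100a10, Tubb6, Anxa2 and Pvr) and none a lower one. None of the 30 ribosome biogenesis genes differed from the sham step, and their median in shams was 0.96 with none called there. Hmox1 changed by 2.12 in shams (q = 0.068) and its difference of 1.94 was not called (q = 0.134). The lipid lists had larger medians in shams than in the reperfused lobe. The sham medians were -1.37 for fatty acid synthesis, -1.41 for cholesterol synthesis and 1.61 for PPAR alpha targets, against 0.05, 0.13 and -0.20 in the reperfused lobe, with none, 2 lower (Insig1 and Stard4) and 2 higher (Cidec and Cyp4a2) members called in shams.

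**Figure D5:**
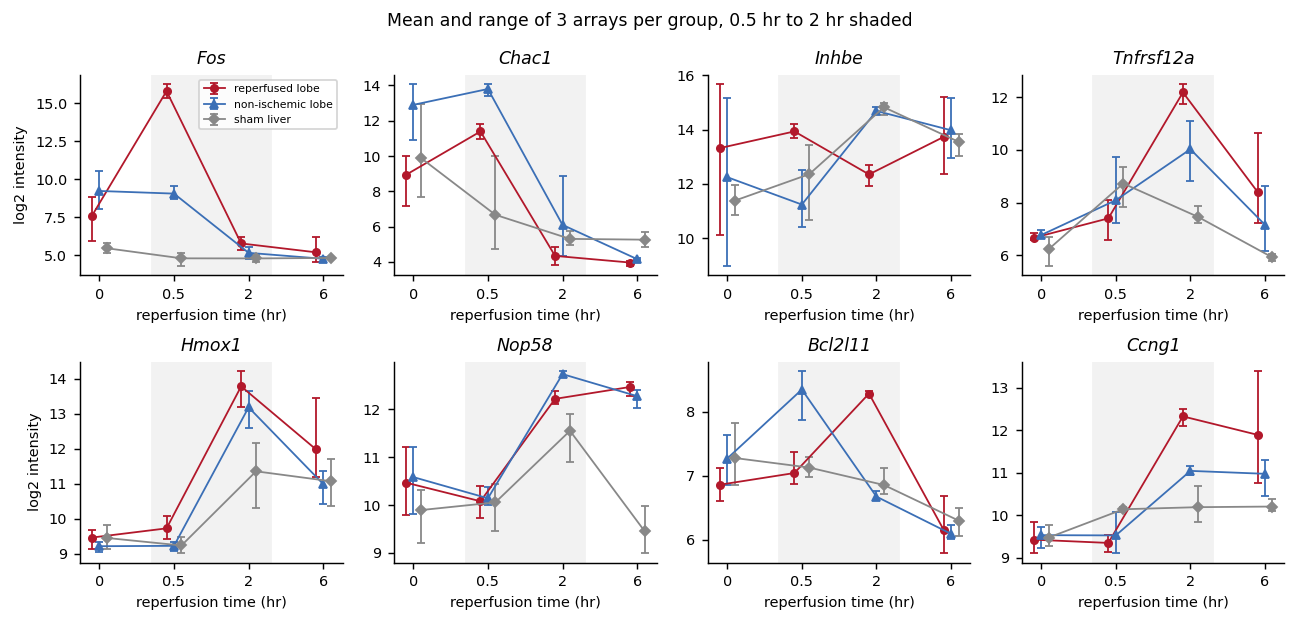
Log2 intensity (y axis, mean with the lowest and highest of 3 arrays) at each of the times 0, 0.5, 2 and 6 hr after flow returned, in the reperfused lobe, the non-ischemic lobe and sham livers for 8 genes, with the examined step shaded. Fos is high at 0.5 hr in the reperfused lobe, Bcl2l11 at 2 hr, and Inhbe is lower at 2 hr than at 0.5 hr in the reperfused lobe and higher in the other groups.

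The neighbouring times place the step, and they are given as levels with no test. Fos in the reperfused lobe read 5.90 to 8.79 at 0 hr, before flow returned, and 4.57 to 6.18 at 6 hr, so the 0.5 hr arrays were the high point and the 2 hr arrays lay within the range at 6 hr. Chac1 read 7.17 to 10.03 at 0 hr and 3.76 to 4.07 at 6 hr. Gdf15 was at 5.42 to 5.90 at 0 hr and 5.04 to 6.18 at 6 hr, both near its 2 hr level. Among the rises, Tnfrsf12a was at 6.57 to 6.86 at 0 hr and 7.23 to 10.65 at 6 hr, and Hmox1 at 9.13 to 9.67 and 11.20 to 13.47, against 11.73 to 12.52 and 13.19 to 14.23 at 2 hr, so the highest 6 hr array of Hmox1 overlapped the 2 hr arrays and that of Tnfrsf12a did not. Slc20a1 averaged 8.43 at 0 hr and 8.56 at 6 hr, and Trak2 9.44 and 8.94, and both lay near their 0.5 hr level again at 6 hr. Nop58 and Osmr averaged 12.47 and 12.59 at 6 hr. Pck1 and G6pc1 averaged 15.14 and 9.82 at 6 hr.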

How the data were processed

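Per the file headers and labels, the deposited table holds linear probe set intensity on rat transcriptome arrays, which the authors summarized and normalized with signal space transformation and RMA in Affymetrix Expression Console, 1 array per sample. Median intensity per array was 39.6 to 43.6 over the series, and the 3 arrays per group limit the precision. Log2 of the intensity of all 23409 coding probe sets was fitted with limma 3.58.1 in R 4.3.3 (Python 3.11.15, pandas 2.3.3 and numpy 2.4.6 elsewhere), using the 6 arrays of a step, with Benjamini-Hochberg adjustment and a threshold of 0.05. The lobe difference was tested on the within-animal difference between lobes, and the sham contrast as reperfused step minus sham step. The fits were tested on simulated data with independent noise on each array, which held no shared animal effect, batch or outlying array.

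One gene symbol was given to 19787 probe sets, several to 410 and none to 3212. The probe set with the highest mean over all arrays stood for its gene. The genes named were the 15 largest rises and 15 largest falls among those called. They were required to have no overlap of the times and a level of at least 6 on the log2 scale in 1 group. Also named were up to 4 called members per list and 6 genes per direction for each difference between steps. Fos, Jun, Atf3, Egr1, Hmox1, Tnfrsf12a, Scd, G6pc1, Chac1, Inhbe and Alb were named in any case. Other genes were added as examples of their lists, and their values were known when they were chosen. The members, the 34 gene lists and the 8 marker lists were chosen with earlier results of these data known. Promoters are RefSeq sequences of GRCr8.

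Same-numbered reperfused arrays of the 2 times correlated at 0.12, 0.11 and 0.22 in their deviations from the group means. The numbers were therefore treated as a possible pairing, through a block in an alternative fit, while the main fits of the steps were unpaired. The animals differ, and replicate 2 of 0.5 hr correlated best with replicate 1 of 2 hr (0.20). Alternatives were the interquartile range filter of the study's methods (11704 probe sets), leaving out dim probe sets (mean log2 under 5), quantile normalization, limma's trend and robust options, all arrays of operated animals in the fit, the replicate number as a block, and leaving out each array.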

Additional observations from a re-analysis of the deposited data

Results flagged for a closer look

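The step differed between the reperfused and the non-ischemic lobe by a test of the difference for the genes below, given as the reperfused minus the non-ischemic log2 step. Toward a lower step these were Fos at -6.13, Cxcl1 at -5.06, Inhbe at -5.04, Ier2 at -4.56, Fosb at -4.39 and G0s2 at -3.59. Toward a higher step these were Bcl2l11 at 2.91, Nrip1 at 2.16, Fat1 at 1.89, Trak2 at 1.87, Rell1 at 1.86 and Gucd1 at 1.84.

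The step also differed between the reperfused lobe and the sham livers by a test of the difference. Toward a lower step were Adh6, an alcohol dehydrogenase, at -10.04, Fos at -10.02, Gdf15 at -5.61, Ccn1 at -5.15, Cxcl1 at -5.11 and Fosb at -4.55. Toward a higher step were Tnfrsf12a at 6.04, Olr1 at 4.81, Stac3 at 4.58, Pvr at 4.14, Nrip1 at 3.54 and Ppl at 3.44. For Adh6 and Stac3 the reperfused step itself was not called (q = 0.455 and q = 0.808), and the sham steps were 6.80 and -4.72. For Cxcl1 the reperfused step was not called either, and the sham step was called higher.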

How the results depend on the processing

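With all arrays of operated animals in the fit, the reperfused lobe gave 930 higher and 577 lower calls, and counts were 1757 in the non-ischemic lobe, 1640 in shams and 116 for the lobe difference. Leaving out 1 array gave 191 to 378 higher (306, 191 and 198 without replicates 1, 2 and 3 of 0.5 hr, and 249, 249 and 378 without those of 2 hr) and 67 to 126 lower (126, 74 and 67, then 69, 69 and 115). It gave 311 to 688 of 1049 calls in the non-ischemic lobe (688, 311 and 349, then 515, 345 and 652), 1 to 1972 of 275 in shams (67, 1 and 1, then 17, 1972 and 12), 9 to 28 of 60 for the lobe difference (9, 14 and 16, then 20, 16 and 28) and 146 to 724 of 435 against shams. The last count was 229 and 146 without sham replicates 2 and 3 of 0.5 hr, 206, 724 and 197 without sham replicates 1, 2 and 3 of 2 hr, 223 and 247 without reperfused replicates 2 and 3 of 0.5 hr and 240 without reperfused replicate 1 of 2 hr. The sham count was 668 with the interquartile range filter, 765 without dim probe sets, 450 with quantile normalization (41.8% higher against 55.3%), 160 with trend and robust options and 11 with the replicate number as a block. The lobe difference had 108 calls with the filter, 107 without dim probe sets and 1 with trend and robust options. With the replicate block the reperfused lobe had 420 higher and 151 lower, and 68 of the 75 genes named by rule and called kept their call, with the values of the other 7 given beside them. None of these 75 genes reversed in the settings run, and 40 of the 75 were called in all 6 fits with an array left out. Of the largest rises Olr1, Osmr, Bcl3, Pvr, Tbc1d2 and Tubb6 lost their call in at least 1 of these, and of the largest falls Egr1, Nr4a1 and Sesn2. Called in 1 of the 6 were Olr1, Osmr, Nr4a1, Rell1, Nrip1, Nfkbiz, Osgin1, Pfkfb3, Slc2a1, Slc7a1, Ifih1, Tnfrsf10b, Adamts4 and Id4, and in none Rars1, Gadd45g and Srsf4. With all arrays in the fit 67 of the 75 were called, and Inhbe (q = 0.566), Usp18 (q = 0.258), S100a10 (q = 0.181), Slc2a1 (q = 0.178), Srsf4 (q = 0.139), Osgin1 (q = 0.075), Il6r (q = 0.0686) and Srsf2 (q = 0.0582) were not. Slc2a1 was not called with quantile normalization (q = 0.0696), nor were Slc2a1 (q = 0.062) and Srsf4 (q = 0.0674) with trend and robust options. The causes were not tested, apart from the smaller number of arrays or probe sets that a setting itself brings. Values near 5 on the log2 scale hold much background, which limits how far a fall can be measured.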
